A study of Homo sapiens with 8 samples.

Results

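The secreted WNT antagonists are described here as 10 genes chosen by name: SFRP1, SFRP2, FRZB, SFRP4, SFRP5, WIF1, DKK1, DKK2, DKK3 and DKK4. All 10 were among the 35940 gene symbols of the expression table, each with 1 Ensembl row, and 8 of the 10 reached the level needed for testing. The cells were ESI017, a wild-type human embryonic stem cell line, labelled as differentiating towards a posterior neural fate, and every group carried the same treatment up to 34 h: N2B27, a serum-free neural medium, with SB (10 µM) and LDN (100 nM), names commonly used for inhibitors of activin/Nodal and of BMP signalling. WNT3A protein (300 ng/mL) was added at 34 h, and RNA was taken at 34, 42, 50 and 72 h, with 2 libraries at each time point. The pair at each time point is named here by its hour. The 34 h group is the last point before exposure, and the other groups had 8, 16 and 38 h of WNT3A. All groups come from 1 line, and cells kept without WNT3A past 34 h were not analysed here, so the effects of time and of WNT3A cannot be told apart in any comparison.

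WNT proteins signal by joining a Frizzled receptor to the co-receptor LRP5 or LRP6, which stabilises beta-catenin. Secreted antagonists act outside the cell at different steps. The SFRP proteins, among them FRZB (also called SFRP3), carry a cysteine-rich domain like that of the Frizzled receptors and bind WNT, and WIF1 also binds WNT directly. DKK1, DKK2 and DKK4 bind LRP5 and LRP6 instead, with KREMEN proteins as partners, while DKK3 is a divergent relative whose part in WNT signalling is less settled. In the early neural plate, antagonists of both kinds are known for keeping WNT signalling low at the anterior end.

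Levels are in TPM, a share of all transcripts of a library, which the authors deposited; the unit takes transcript length into account, so levels may be compared between genes. The depth of the libraries is unknown, since TPM keeps no read numbers. The number of genes with at least 1 TPM lay between 13860 and 14004 per library. The pluripotency gene POU5F1 stood at 1165 and 1152 TPM in the 34 h pair and 354.5 and 388 TPM in the 72 h pair. In the limma tests described below, 4 of 8 pluripotency markers, POU5F1 among them, were lowered at 72 h against 34 h. SOX2 was raised, with means of 217.5 TPM at 34 h and 340 TPM at 72 h. LIN28A and PRDM14 had higher and NANOG lower means at 72 h, and none of them was called. The sum of 7 neural progenitor markers was 344 ± 1.33 TPM before WNT3A and 666 ± 41.1 TPM at the end (SD, n = 2). Levels are for whole cultures, so fewer cells of a type and less RNA per cell cannot be told apart.

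The pool of antagonist transcripts was dominated by SFRP1 and SFRP2 at every time point. Summed over the 10 genes, the level was 709.7 and 673 TPM in the 34 h pair, 529 and 529.8 in the 42 h pair, 451 and 454 in the 50 h pair and 483 and 444 in the 72 h pair. The 34 h libraries were the highest, with no overlap with the later ones. SFRP1 and SFRP2 together made up 95.5% and 94.9% of this sum at 34 h and 91.1% and 88.7% at 72 h. The other 8 genes summed to 32.2 and 34.5 TPM at 34 h and to between 39.5 and 50.2 TPM in the 6 later libraries. DKK3 was the highest of those 8 at 34 h, and FRZB lay beside it at 72 h.

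**Figure D1:**
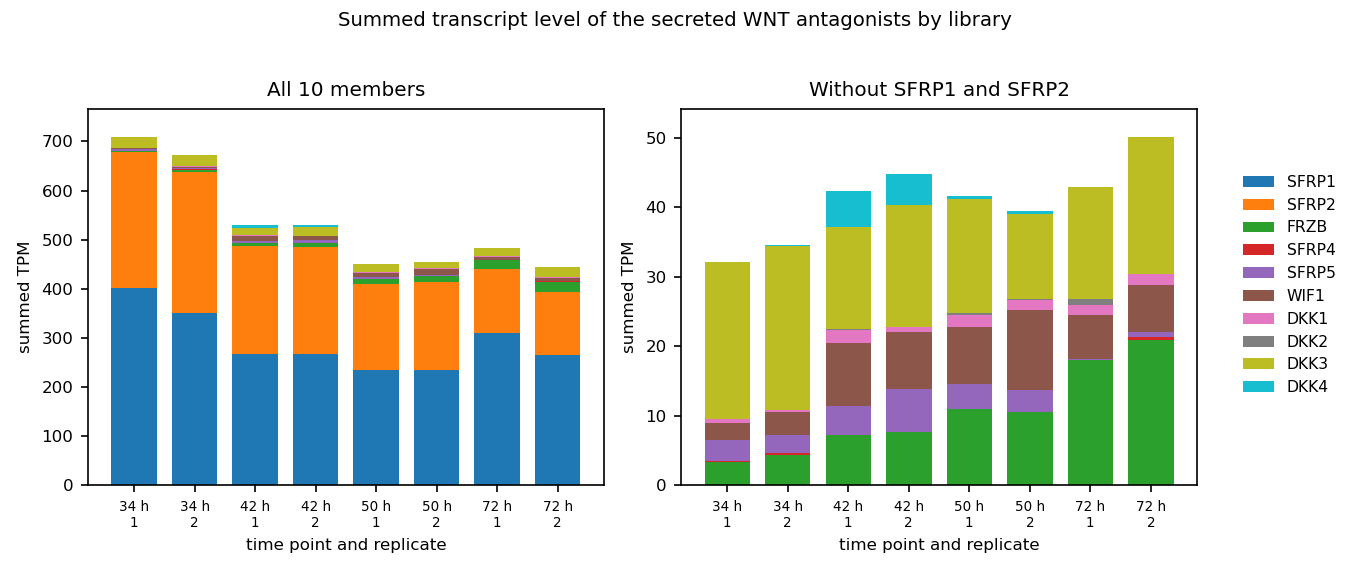
Stacked bars of TPM for each library, by time point and replicate; the left panel holds all 10 genes and the right panel the 8 genes other than SFRP1 and SFRP2, on its own axis. The left bars fall from 709.7 and 673 TPM at 34 h to 451 and 454 TPM at 50 h, and DKK4 is visible in the right panel mainly at 42 h.

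Changes were tested with limma on log2(TPM + 1), with Benjamini-Hochberg adjustment over all 14908 tested genes and a threshold of 0.05 on the adjusted p. Over the 4 time points 6 of the 8 tested members changed (limma F-test), where 17.4% of all tested genes did: SFRP1, SFRP2, FRZB, SFRP5, WIF1 and DKK4. At 42 h against 34 h 5 members passed, against 2.58% of all genes. FRZB, WIF1 and DKK4 were raised (background 1.78%), and SFRP1 and SFRP2 lowered (background 0.792%). At 50 h against 34 h 4 passed, against 6.26% of all genes, with FRZB and WIF1 raised (background 3.52%) and SFRP1 and SFRP2 lowered (background 2.74%). At 72 h against 34 h 5 passed, against 24.0% of all genes, with the same genes in the same directions as at 50 h and SFRP5 also lowered (backgrounds 12.7% raised and 11.3% lowered). Between 42 h and 50 h 1 member, DKK4, passed as lowered, where 0.0939% of all genes passed and 0.0335% were lowered. From 50 h to 72 h 3 members passed, against 7.33% of all genes, with FRZB raised (background 2.92%) and SFRP2 and SFRP5 lowered (background 4.41%). The 3 comparisons with 34 h share the 34 h libraries. The median log2 change of the 8 tested members against 34 h was 0.65, 0.31 and -0.21 at the 3 later times, beside 0.01, 0.04 and 0.06 for all genes tested; DKK4 is among the 8 through its 42 h level alone. The pairs did not overlap for 8 members in the 42 h comparison with 34 h, 8 in that of 50 h and 7 in that of 72 h, where 42.4%, 48.4% and 64.6% of all tested genes did not, and for 5 between 42 h and 50 h and 6 between 50 h and 72 h, where 37.3% and 51.7% did not.

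**Figure D2:**
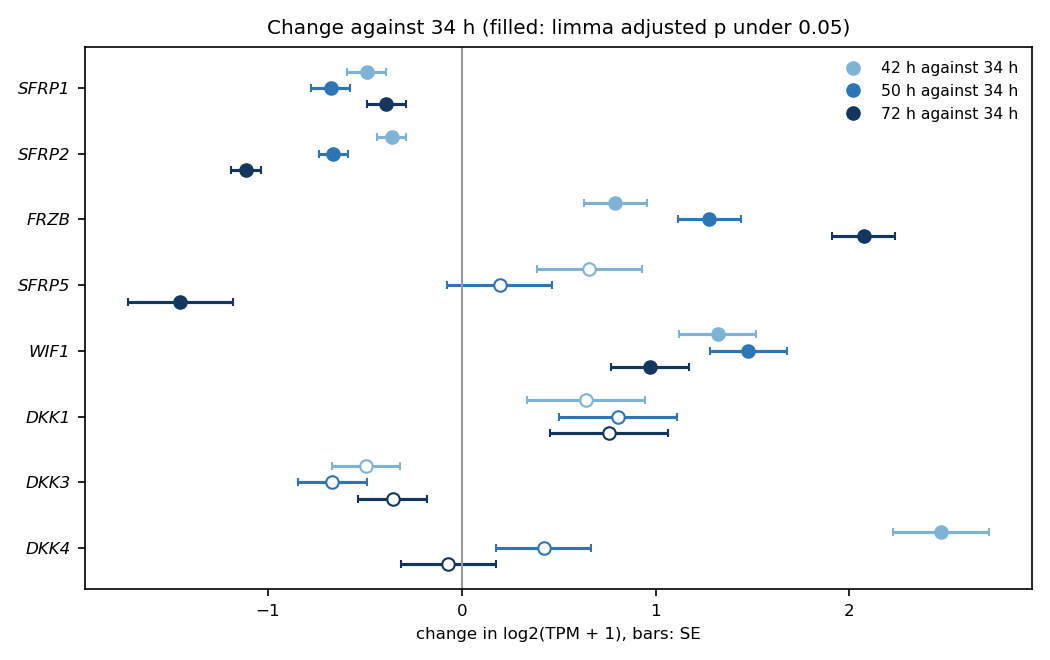
Change in log2(TPM + 1) against 34 h for the 8 tested members at 42, 50 and 72 h, as points with SE bars; filled points have a limma adjusted p under 0.05. SFRP1 and SFRP2 lie below 0 and FRZB and WIF1 above 0 at all 3 times, while DKK4 stands apart from 0 at 42 h with a change of 2.47.

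Among the SFRP genes, SFRP1 was the most abundant member. It had 402 and 350.2 TPM in the 34 h pair, 267 and 266 in the 42 h pair, 234 and 234 in the 50 h pair and 309 and 266 in the 72 h pair. The 34 h libraries were the highest and the 50 h libraries the lowest, and the 42 h and 72 h libraries overlapped. SFRP1 fell by 0.49 ± 0.10 (SE) on the log2 scale at 42 h (limma adjusted p 0.0457), by 0.68 ± 0.10 at 50 h (0.00605) and by 0.39 ± 0.10 at 72 h (0.0254), each against 34 h. From 50 h to 72 h it was higher by 0.29 ± 0.10, which did not pass (limma adjusted p 0.135). The 50 h call held without any 1 library. The 72 h call was lost without replicate 1 at 34 h (limma adjusted p 0.142) or replicate 2 at 72 h (0.16); over all alternatives the value ran from 0.00922 to 0.16.

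SFRP2 followed SFRP1 down to 50 h and then continued to fall. It had 276 and 288 TPM in the 34 h pair, 219 and 219 in the 42 h pair, 175 and 180.2 in the 50 h pair and 131 and 128 in the 72 h pair. No libraries of different time points overlapped, and each later time point was below the one before. Its log2 change against 34 h was -0.36 ± 0.08 at 42 h (limma adjusted p 0.0499, and 0.0604 with the replicate number as a block), -0.66 ± 0.08 at 50 h (0.0017) and -1.11 ± 0.08 at 72 h (3.707e-05). Between the 50 h and 72 h pairs the change of -0.45 ± 0.08 passed as well (limma adjusted p 0.0107). That step was lost without replicate 2 at 50 h (0.0533), replicate 1 at 72 h (0.0759) or replicate 2 at 72 h (0.0807); over all alternatives the value ran from 0.00937 to 0.0807.

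FRZB rose while SFRP2 fell. It had 3.35 and 4.37 TPM in the 34 h pair, 7.18 and 7.58 in the 42 h pair, 11.0 and 10.5 in the 50 h pair and 18.0 and 20.9 in the 72 h pair. Each time point was above the one before, with no overlap. Its log2 change against 34 h was 0.79 ± 0.16 at 42 h (limma adjusted p 0.0469), 1.28 ± 0.16 at 50 h (0.00297) and 2.07 ± 0.16 at 72 h (8.393e-05). The last was 2.12 within replicate 1 and 2.03 within replicate 2. By size of change, FRZB ranked 296 among the 14908 tested genes at 72 h. Between the 50 h and 72 h pairs the change of 0.80 ± 0.16 also passed (limma adjusted p 0.024). That step was lost when either 50 h library (0.0777 and 0.107) or either 72 h library (0.0879 and 0.152) was left out; over all alternatives the value ran from 0.0206 to 0.152.

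The 42 h calls of SFRP1, SFRP2 and FRZB lay close to the threshold. Each was lost when any 1 of the 8 libraries was left out, with limma adjusted p-values of 0.0517 to 0.24 for SFRP1, 0.0572 to 0.293 for SFRP2 and 0.0722 to 0.231 for FRZB, while the sign held in every such fit. Their differences between the 42 h and 50 h pairs, of -0.19, -0.30 and 0.49, did not pass (limma adjusted p 0.621, 0.251 and 0.405). Over all alternatives the 42 h values ranged from 0.0294 to 0.24, 0.0466 to 0.293 and 0.0404 to 0.231.

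The balance among these SFRP genes is shown by their ratios. The ratio of SFRP1 to SFRP2 in TPM was 1.46 and 1.22 in the 34 h pair, 1.22 and 1.22 in the 42 h pair, 1.34 and 1.3 in the 50 h pair and 2.35 and 2.07 in the 72 h pair. Both 72 h libraries lay above the other 6. The ratio of SFRP2 to FRZB was 82.2 and 65.9 in the 34 h pair, 30.5 and 28.9 in the 42 h pair, 15.9 and 17.2 in the 50 h pair and 7.31 and 6.13 in the 72 h pair. It was lower at each later time point, without overlap. Both ratios are given as a description and were not tested.

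**Figure D3:**
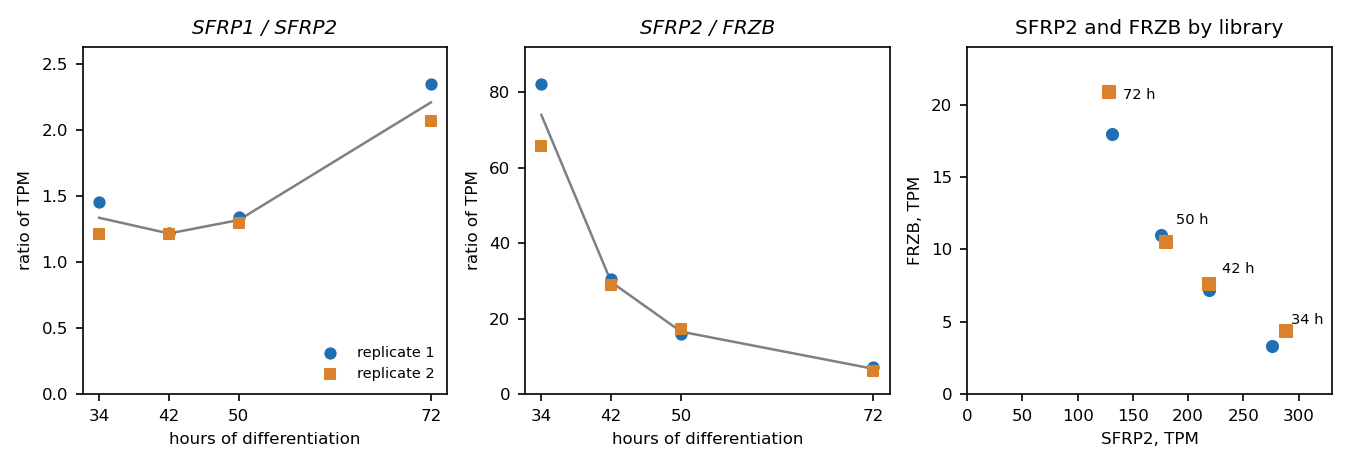
Ratio of SFRP1 to SFRP2 and of SFRP2 to FRZB in TPM by hours of differentiation, and FRZB against SFRP2 in TPM, with 1 point per library, colour and shape by replicate, and a grey line through the means in the first panels. The SFRP2 to FRZB ratio goes from 82.2 and 65.9 at 34 h to 7.31 and 6.13 at 72 h, and in the right panel the 34 h libraries lie at the lower right and the 72 h libraries at the upper left.

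SFRP5 was a low-level member that was below 1 TPM by 72 h. It had 3.09 and 2.65 TPM in the 34 h pair, 4.16 and 6.21 in the 42 h pair, 3.65 and 3.21 in the 50 h pair and 0.154 and 0.729 in the 72 h pair. The 72 h libraries were the lowest of all, and the 42 h libraries the highest. The difference at 42 h did not pass (0.66 ± 0.27, limma adjusted p 0.326), and neither did the difference at 50 h (0.20 ± 0.27, 0.745). At 72 h SFRP5 was lowered by -1.45 ± 0.27 against 34 h (limma adjusted p 0.00636) and by -1.65 ± 0.27 against 50 h (0.00963). The latter was lost without replicate 1 at 50 h (0.053) or replicate 1 at 72 h (0.0712); over all alternatives the value ran from 0.00971 to 0.0712. SFRP4 stayed below the level for testing, with 0.0384 and 0.179 TPM at 34 h, a listed 0 in all 4 libraries of 42 h and 50 h, and 0.0317 and 0.487 TPM at 72 h.

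**Figure D4:**
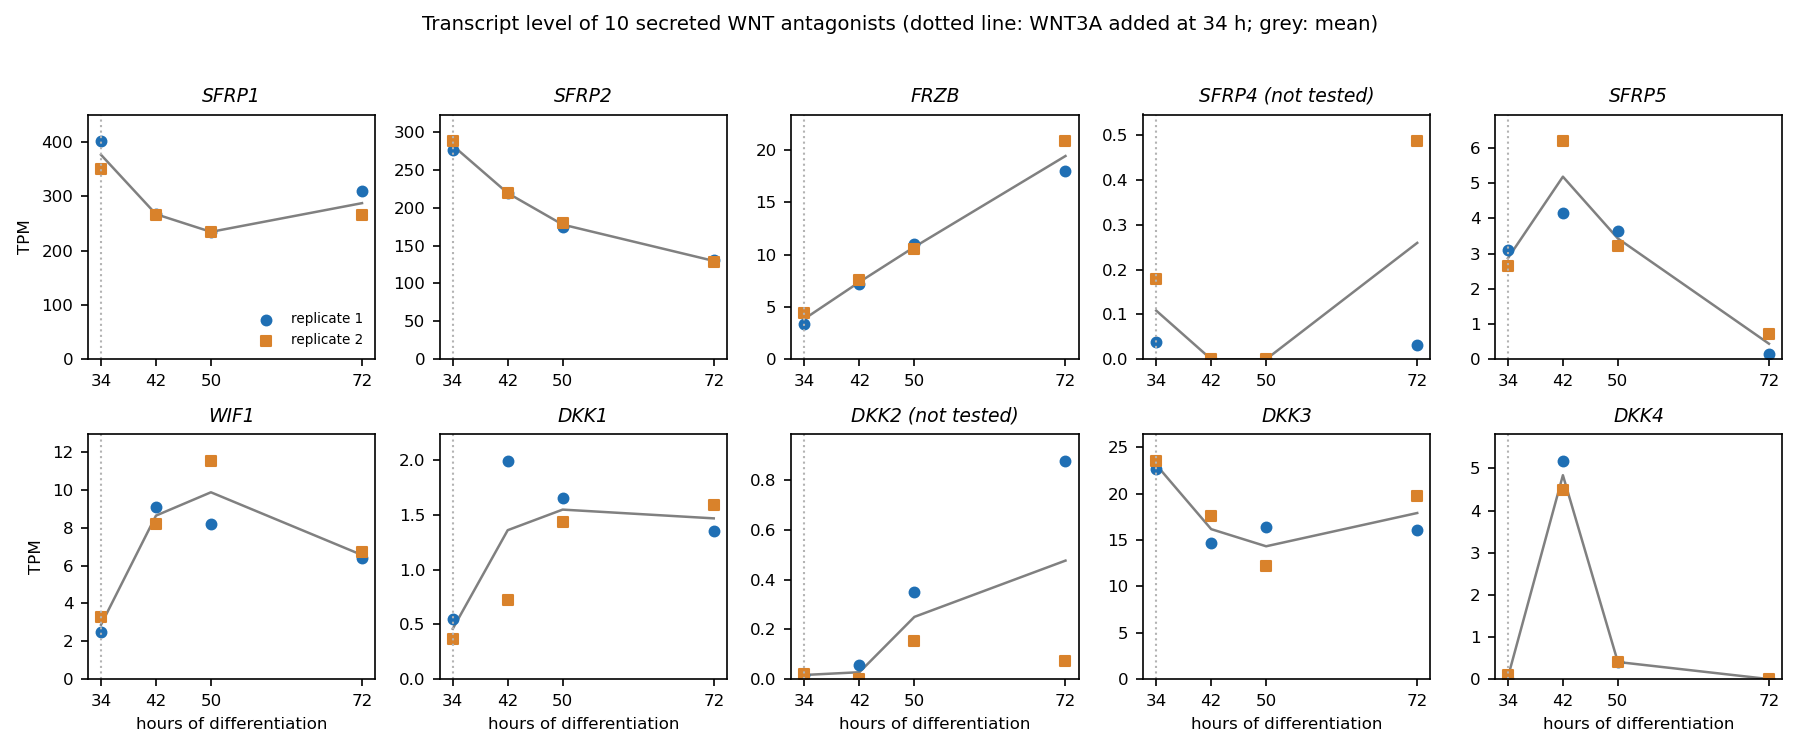
TPM of each of the 10 members by hours of differentiation, with 1 point per library, colour and shape by replicate, a grey line through the means and a dotted line where WNT3A was added; each panel has its own axis from 0. SFRP2 and FRZB run in opposite directions, WIF1 is above its 34 h level at all later times, and DKK4 has 5.19 and 4.49 TPM at 42 h.

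WIF1, WNT inhibitory factor 1, was raised at all 3 later time points against 34 h. It had 2.49 and 3.26 TPM in the 34 h pair, 9.07 and 8.21 in the 42 h pair, 8.19 and 11.6 in the 50 h pair and 6.42 and 6.69 in the 72 h pair. The 34 h libraries were the lowest, the 42 h and 50 h libraries overlapped, and the 72 h libraries lay between. Its log2 change against 34 h was 1.32 ± 0.20 at 42 h (limma adjusted p 0.0119), 1.48 ± 0.20 at 50 h (0.00394) and 0.97 ± 0.20 at 72 h (0.01). WIF1 ranked 230 among all tested genes by size of change at 42 h and 254 at 50 h. From 50 h to 72 h the difference of -0.51 ± 0.20 did not pass (limma adjusted p 0.179). The 42 h call was lost without replicate 1 at 34 h (0.0894) or without replicate 1 or 2 at 42 h (0.0873 and 0.0675), and the 72 h call without replicate 1 at 34 h (0.0615) or without replicate 1 or 2 at 72 h (0.0504 and 0.057). Over the alternatives these values ranged from 0.00893 to 0.0894 and from 0.0079 to 0.0615.

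DKK4 had a short pulse. It was listed at 0 and at 0.101 TPM in the 34 h pair and reached 5.19 and 4.49 TPM in the 42 h pair. The level was down to 0.412 and 0.399 TPM in the 50 h pair, and DKK4 was listed at 0 in both 72 h libraries. Only the 42 h libraries were above 1 TPM, so DKK4 was tested through them alone and had to differ somewhere. Its log2 change was 2.47 ± 0.25 from 34 h to 42 h (limma adjusted p 0.00149). It was 2.63 within replicate 1 and 2.32 within replicate 2, and ranked 33 among all tested genes by size. From 42 h to 50 h it was lowered by -2.05 ± 0.25 (limma adjusted p 0.0375), or by -2.13 and -1.97 taken by replicate, and ranked 25. That fall did not pass with the replicate block (0.0854). It was also lost without either 34 h library (0.0873 and 0.088), either 50 h library (0.181 and 0.151) or either 72 h library (0.078 and 0.0742), and with a pseudocount of 0.1 (a log2 change of -3.28 on that scale, limma adjusted p 0.26); the range over the alternatives was 0.00565 to 0.26. Without either 42 h library DKK4 did not reach the level for testing. At 50 h against 34 h its difference of 0.42 ± 0.25 did not pass (0.396).

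The mesoderm marker TBXT was also raised at 42 h. Summed over 10 mesoderm markers, TBXT among them, the level was 4.3 and 3.96 TPM in the 34 h pair, 18.1 and 14.4 in the 42 h pair, 15.7 and 11.0 in the 50 h pair and 4.3 and 5.16 in the 72 h pair. Of the 4 tested, TBXT alone passed at 42 h, and TBXT and MIXL1 were raised and PDGFRA lowered at 50 h. MIXL1 reached 1 TPM only at 42 h and 50 h and PDGFRA only at 34 h and 42 h, so both were tested through the times where they were high. TBXT stood at 11.4 and 7.92 TPM in the 42 h pair and 9.62 and 6.83 TPM in the 50 h pair. HAND1 had 0.833 and 0.778 TPM at 42 h and was listed at 0 in all 34 h and 72 h libraries. Among 6 endoderm markers, of which 3 were tested, CXCR4 was raised at 42 h (limma adjusted p 0.0102), with 1.13 and 1.73 TPM in the 34 h pair, 5.71 and 5.3 in the 42 h pair, 2.04 and 2.64 in the 50 h pair and 6.33 and 7.21 in the 72 h pair. EOMES had 1.33 and 1.21 TPM in the 42 h pair, at most 0.591 TPM in any other library and a listed 0 in both at 72 h. It was tested through its 42 h level alone, and its difference from 34 h there did not reach the threshold (limma adjusted p 0.0942). The 6 endoderm markers summed to 14.4 ± 1.42 and 14.6 ± 0.261 TPM in the 34 h and 42 h pairs (SD, n = 2). That sum holds opposite moves: FOXA2 went from a mean of 12.7 to 7.38 TPM (limma adjusted p 0.0977), while CXCR4 and EOMES were higher at 42 h. The part of mesoderm-like or endoderm-like cells in the DKK4 level was not tested.

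DKK1 and DKK3 did not pass in any comparison. DKK1, the prototype of its family and a head inducer in frog embryos, had 0.552 and 0.367 TPM in the 34 h pair, 2.0 and 0.724 in the 42 h pair, 1.66 and 1.44 in the 50 h pair and 1.35 and 1.59 in the 72 h pair. The 34 h libraries were the lowest, and the spread at 42 h was wide. Against 34 h the 3 later times were higher by 0.64 ± 0.30, 0.81 ± 0.30 and 0.76 ± 0.30 in log2(TPM + 1), with limma adjusted p-values of 0.414, 0.181 and 0.109. DKK3 had 22.7 and 23.6 TPM in the 34 h pair, 14.7 and 17.6 in the 42 h pair, 16.4 and 12.2 in the 50 h pair and 16.1 and 19.8 in the 72 h pair. Its 34 h libraries were the highest and the later time points overlapped, with log2 changes of -0.49 ± 0.18, -0.67 ± 0.18 and -0.36 ± 0.18 against 34 h (limma adjusted p 0.254, 0.0668 and 0.183). DKK2 stayed below the level for testing, with 0.0147 and 0.0184 TPM in the 34 h pair, 0.0553 TPM and a listed 0 in the 42 h pair, 0.349 and 0.152 TPM in the 50 h pair and 0.879 and 0.0742 TPM in the 72 h pair.

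The promoter windows of the members that moved in opposite ways, and of DKK1 as a known beta-catenin target, are shown to compare their letters. Of the 10 members 6 had an entry in the RefSeq promoter table (GRCh38.p14), which gives 250 bases before and 50 bases after each gene start. SFRP1, DKK2, DKK3 and DKK4 were not matched. Sequences read 5′ to 3′ on the strand of the gene, and capitals mark 3 sets of letters searched on both strands: a group of TCF/LEF words (CTTTGAA with its variants, namely CTTTGAT beside CTTTGTA beside CTTTGTT), the TATA box word TATAAA, and the GC box word GGGCGG, which reads CCGCCC where it lies on the other strand. No 2 of the marked matches overlapped. FRZB, which rose, and SFRP2 and SFRP5, which fell, were read at chr2:182866588-182866887, chr4:153789034-153789333 and chr10:97771950-97772249, WIF1, which rose, at chr12:65121256-65121555, all on the minus strand, and DKK1 at chr10:52314031-52314330 on the plus strand.
FRZB: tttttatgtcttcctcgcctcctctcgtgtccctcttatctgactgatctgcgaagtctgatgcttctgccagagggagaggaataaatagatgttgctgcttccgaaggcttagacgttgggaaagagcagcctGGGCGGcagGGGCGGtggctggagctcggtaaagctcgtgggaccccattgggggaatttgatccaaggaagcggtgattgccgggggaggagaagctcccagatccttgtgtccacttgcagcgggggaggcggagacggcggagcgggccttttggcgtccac
WIF1: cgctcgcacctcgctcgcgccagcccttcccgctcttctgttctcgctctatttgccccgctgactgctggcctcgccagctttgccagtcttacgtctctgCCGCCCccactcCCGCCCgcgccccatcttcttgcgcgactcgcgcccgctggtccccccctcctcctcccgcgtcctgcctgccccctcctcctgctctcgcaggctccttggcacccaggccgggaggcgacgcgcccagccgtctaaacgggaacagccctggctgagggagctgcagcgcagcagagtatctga
SFRP2: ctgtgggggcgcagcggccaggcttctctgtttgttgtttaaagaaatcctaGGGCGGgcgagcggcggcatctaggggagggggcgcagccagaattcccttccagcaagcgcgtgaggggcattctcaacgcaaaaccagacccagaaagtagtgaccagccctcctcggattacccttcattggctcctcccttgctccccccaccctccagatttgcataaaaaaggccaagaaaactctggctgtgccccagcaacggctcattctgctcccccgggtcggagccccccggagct
SFRP5: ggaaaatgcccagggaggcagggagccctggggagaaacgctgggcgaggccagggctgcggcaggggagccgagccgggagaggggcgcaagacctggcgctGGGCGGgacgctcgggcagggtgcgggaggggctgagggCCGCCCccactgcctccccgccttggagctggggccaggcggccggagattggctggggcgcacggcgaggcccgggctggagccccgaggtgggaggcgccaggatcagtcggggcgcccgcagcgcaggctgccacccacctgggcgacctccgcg
DKK1: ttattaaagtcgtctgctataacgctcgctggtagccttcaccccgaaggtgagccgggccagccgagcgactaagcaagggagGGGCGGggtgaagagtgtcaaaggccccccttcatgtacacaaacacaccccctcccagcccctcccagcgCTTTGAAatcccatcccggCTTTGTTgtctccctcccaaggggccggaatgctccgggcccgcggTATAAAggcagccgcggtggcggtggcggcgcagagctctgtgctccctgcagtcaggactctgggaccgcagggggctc
Of these windows only that of DKK1 held a TCF/LEF word, with CTTTGAA starting 95 bases and CTTTGTT 76 bases before the gene start, and only it held TATAAA, 30 bases before the start. Among all 35116 promoter windows of that length 13.8% held at least 1 of the TCF/LEF words, 11.5% held TATAAA and 45% held the GC box word. The GC box word occurred 1 time in SFRP2 and DKK1 and 2 times in FRZB, WIF1 and SFRP5. CpG pairs numbered 15 in SFRP2, 17 in FRZB, 20 in DKK1, 28 in SFRP5 and 29 in WIF1, beside a median of 14 over all windows. A match describes letters in these windows and shows no binding, and DKK1, the member with such words here, was not called changed. The gene starts of the RefSeq table and of GENCODE release 29 differ: in the latter FRZB extends to 182867162 on chromosome 2, SFRP2 to 153789120 on chromosome 4 and WIF1 to 65121566 on chromosome 12, each past the start used for its window. The FRZB and WIF1 windows lie wholly inside those annotated genes and hold no bases before their GENCODE starts.

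In GENCODE release 29 the members are all protein-coding and lie on 7 chromosomes. SFRP1 (ENSG00000104332) is at 41261958 to 41309497 on chromosome 8, SFRP2 (ENSG00000145423) at 153780592 to 153789120 on chromosome 4 and FRZB (ENSG00000162998) at 182833275 to 182867162 on chromosome 2, each on the minus strand. WIF1 (ENSG00000156076) is at 65050626 to 65121566 on chromosome 12 and SFRP5 (ENSG00000120057) at 97766751 to 97771952 on chromosome 10, both on the minus strand. DKK4 (ENSG00000104371) is at 42374068 to 42377232 on chromosome 8, minus strand. SFRP4, DKK3 and DKK2 lie on chromosomes 7, 11 and 4. DKK1 (ENSG00000107984, chromosome 10, 52314296 to 52318042, plus strand) was the only member whose exons overlap those of another annotated gene, the antisense gene PRKG1-AS1 on the other strand. Whether the reads were counted by strand is not given in the sources used here, so reads of the 2 genes could not be told apart. PRKG1-AS1 was not listed under that symbol in the expression data, so no level of it could be set beside DKK1.

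The receptors that the antagonists act on are described by class, and no test compared the classes. For the counts against 34 h here and in the paragraphs that follow, the background of raised genes was 1.78%, 3.52% and 12.7% at 42, 50 and 72 h. That of lowered genes was 0.792%, 2.74% and 11.3%. None of the 4 DKK receptors and co-receptors passed in any comparison by limma, with 1 of 4 at an unadjusted p under 0.05 at 42 h and 1 of 4 at 72 h against 34 h. At 72 h 1 of the 4 was called with the compared time points alone and without either 42 h library. From 34 h to 42 h the mean of LRP6 went from 17.6 ± 1.70 to 24.6 ± 7.93 TPM (SD, n = 2), that of LRP5 from 15.6 ± 1.68 to 15.8 ± 2.06 TPM, and that of KREMEN2 from 9.34 ± 1.51 to 12.8 ± 1.88 TPM. Of the 10 Frizzled receptors, all tested, 2 were raised and 2 lowered at 42 h, 3 raised and 2 lowered at 50 h, and 5 raised and 1 lowered at 72 h. At 42 h FZD2 did not pass (limma adjusted p 0.0607) but did when replicates were blocked (0.0464). FZD7, the most abundant, was at 387 ± 27.0 TPM before WNT3A and 365 ± 2.52 TPM at the last time, and did not pass. FZD10 rose from 0.184 ± 0.114 TPM to 4.92 ± 1.32 TPM within 8 h of WNT3A and was at 9.46 ± 0.119 TPM by 72 h, and FZD5 fell from 20.0 ± 0.763 to 8.27 ± 0.00459 TPM within those 8 h.

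WNT ligand genes were read in the same libraries. Of 19 ligand genes 10 were tested: 2 were raised and 1 lowered at 42 h, 5 raised and 2 lowered at 50 h, and 3 raised and 3 lowered at 72 h. WNT5B had means of 1.3, 47.5, 46.7 and 14.5 TPM at the 4 time points and was raised at 42, 50 and 72 h. WNT8A had means of 0.428, 1.69, 9.4 and 47.6 TPM and was raised at 50 h and 72 h. WNT10B had its own highest mean at 42 h, with 1.71 ± 0.0418, 29.9 ± 0.267, 12.7 ± 2.03 and 2.62 ± 0.684 TPM at the 4 time points. It was raised at 42 h and 50 h against 34 h, its difference of -1.19 between 42 h and 50 h did not pass (limma adjusted p 0.0745), and neither did that between 34 h and 72 h. WNT4 fell from 18.7 ± 2.35 to 8.56 ± 1.16 TPM over the first 8 h of WNT3A. The endogenous WNT3A gene stayed at a mean of 0.136 TPM or less, so the added protein was not matched by its transcript. Summed over the 19 genes, ligand transcripts went from 42.8 ± 1.18 to 116 ± 7.75 TPM between 34 h and 42 h, and the 10 antagonists from 691 ± 26.1 to 529 ± 0.453 TPM.

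Of 15 other WNT inhibitors that act outside the cell or at its surface, 12 were tested, with 3 raised and 1 lowered at 42 h, 6 raised and 2 lowered at 50 h, and 6 raised and 1 lowered at 72 h. The median log2 change of these 12 was 0.56, 0.76 and 0.82 at 42, 50 and 72 h. TRABD2A, which codes for a protease that inactivates WNT, rose from 5.57 ± 0.852 to 12.7 ± 0.251 TPM by 42 h and was at 8.23 ± 0.203 TPM by 72 h, where it passed (limma adjusted p 0.0435) but not when replicates were blocked (0.0517). DRAXIN, a secreted protein of the nervous system that binds LRP6, rose from 7.26 ± 0.719 to 23.3 ± 2.45 TPM between 34 h and 72 h. IGFBP4, an IGF-binding protein that can also bind LRP6, fell from 99.8 ± 14.2 to 50.8 ± 0.368 TPM over the same interval. NOTUM, an enzyme that removes the lipid of WNT, was listed at 0 in both 34 h libraries and had a mean of 1.49 ± 0.702 TPM at 42 h, without passing. CER1, SOST and SOSTDC1 stayed below the level for testing. Against this, 6 of the 8 tested WNT feedback and target genes, some of which code for membrane proteins, were raised at each of 42, 50 and 72 h, among them AXIN2 with 18.1 ± 3.45 TPM before WNT3A and 93.7 ± 11.0 TPM after 8 h, and 1 gene, BAMBI, was lowered at 72 h.

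**Figure D5:**
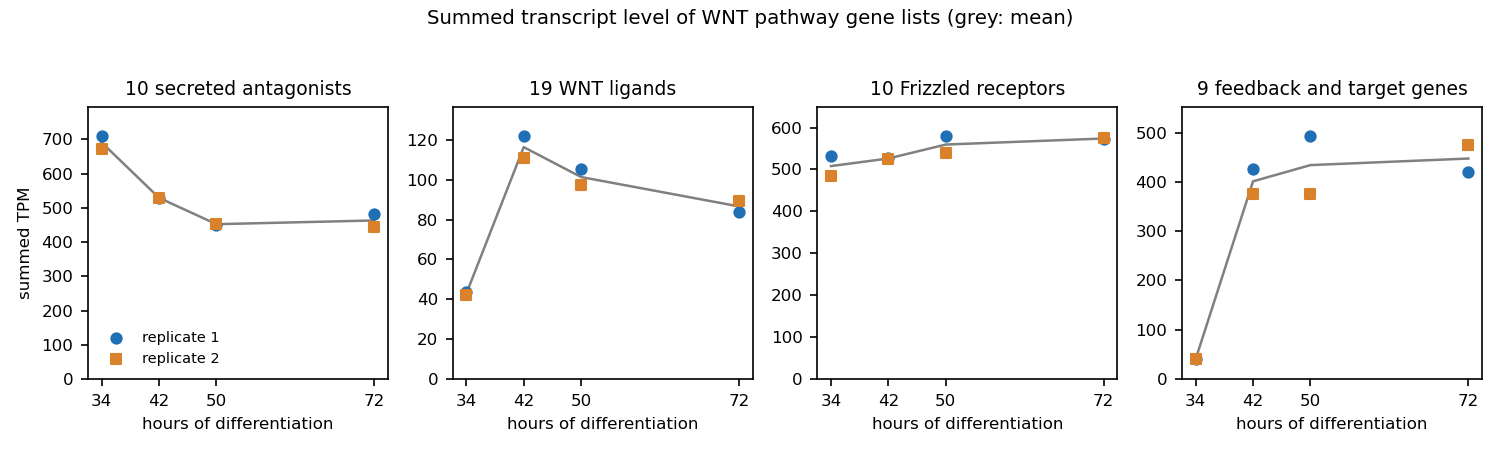
Summed TPM of 4 lists of WNT pathway genes by hours of differentiation, with 1 point per library, colour and shape by replicate and a grey line through the means; each axis starts at 0. The antagonists have their highest sum at 34 h (691 TPM), whereas the ligands have theirs at 42 h (116 TPM) and the target genes go from a mean of 40.3 to one of 401 TPM over the same step.

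Markers of cell types other than neural progenitors were looked at in the same libraries. Pluripotency markers numbered 8 tested, with 1 lowered at 42 h, 4 lowered and 1 raised at 50 h, and 4 lowered and 1 raised at 72 h. With the replicate block LIN28A, the gene raised at 50 h, did not pass (limma adjusted p 0.0467, and 0.0531 with it), and TDGF1 passed as lowered at 42 h (0.0595, and 0.0349 with it). Of 6 tested neural progenitor markers CDH2 was raised at 42 h, CDH2 and SOX1 at 50 h, and 5 at 72 h, among them PAX6, which was tested only through its 72 h level and so had to differ. The endoderm gene SOX17 was listed at 0 in every library, and of 3 tested endoderm markers CXCR4 was raised at 42 h, FOXA2 lowered at 50 h, and CXCR4 raised and FOXA2 lowered at 72 h. Among 5 tested neural crest markers FOXD3 was lowered at 42 h, SNAI2 was raised and FOXD3 lowered at 50 h, and PAX3 and SNAI2 were raised and FOXD3 lowered at 72 h. PAX3 was tested only through its 72 h level and FOXD3 only through its 34 h level, so both had to differ. The part of cells of these kinds in the members’ levels was not tested. SOX10 had between 2.0 and 3.66 TPM in all libraries. Fibroblast markers DCN and LUM were listed at 0 in every library. Of 3 tested fibroblast markers, COL1A1 was lowered at 50 h (limma adjusted p 0.0184), and COL1A1 and THY1 were lowered at 72 h, while COL1A2 had means of 39.1 ± 5.48 TPM before WNT3A and 38.8 ± 4.80 TPM at the end and did not pass (limma adjusted p 0.97). The 7 genes of that list summed to means of 264 ± 21.8, 211 ± 9.29, 181 ± 27.8 and 149 ± 13.1 TPM from the first time point to the last. COL1A1 was thus lower beside SFRP1 and SFRP2 at 50 h, and both it and THY1 at 72 h, and the part of fibroblast-like cells in the SFRP1 and SFRP2 levels was not tested.

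For each member that changed, the 3 genes whose course was most like it were found by Pearson's r of log2(TPM + 1) over the 8 libraries, among 2302 genes whose time point means span at least 1 on that scale. These are the highest of many values and describe the 4 time points more than the single libraries. SFRP2 was most like CSRP1, SEMG1 and SYN3, with r between 0.995 and 0.997; CSRP1 had a mean of 28.9 TPM at 34 h and 5.58 TPM at 72 h. FRZB was most like SH3KBP1, SLC35F1 and IGF2 (r 0.995, 0.993 and 0.991). SFRP1 was most like NPTX1, MT1G and LFNG (r 0.964, 0.941 and 0.938). NPTX1 had means of 193, 36.7, 30.3 and 47.9 TPM at the 4 time points, so like SFRP1 it was lowest at 50 h and higher again at 72 h. WIF1 was most like GADD45B, CAMK2D and TNFRSF11B (r 0.984, 0.981 and 0.98), and SFRP5 was most like MARCH3, C1orf226 and CD44 (r 0.983 or 0.982). For DKK4 the nearest were AC136443.1, NODAL and AC092681.1 (r 0.983, 0.981 and 0.978). AC136443.1 had 2.82 and 2.41 TPM and AC092681.1 2.33 and 2.82 TPM in the 42 h pair, with a listed 0 in every other library. Like DKK4, both were tested through the 42 h pair alone, so a high r with DKK4 had to follow. NODAL, a ligand of the TGF-beta family, had means of 0.511, 8.08, 1.63 and 0.389 TPM.

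Among the 28 pairs of tested members, r over the 8 libraries, which share 4 time points, was positive for 12 and negative for 16. It was -0.987 between SFRP2 and FRZB, -0.946 between SFRP1 and WIF1, and -0.904 between WIF1 and DKK3. The highest positive values were 0.773 between SFRP1 and DKK3, 0.764 between WIF1 and DKK1, 0.691 between SFRP2 and SFRP5 and 0.689 between FRZB and DKK1. For DKK4 the highest value was 0.653, with SFRP5.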

How the data were processed

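Poly(A) RNA sequencing of 8 libraries, 2 at each of 4 time points, was analysed from 1 table that the authors deposited as TPM, with a row for each Ensembl ID. Salmon 1.9.0 and GRCh38 are named per the submitters' processing notes; the annotation, the step from transcripts to genes, strand settings and filters are not given in the sources used here. Each column sums to 1000000, so a rise of some genes lowers the share of others, and depth is unknown. The design text calls the replicates independent biological ones, and the labels number them as batches.

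Rows were summed by symbol, and a gene was tested if 2 or more libraries reached 1 TPM (14908 genes). limma 3.58.1 (R 4.3.3) fitted a mean per time point to log2(TPM + 1) over the 8 libraries, with a variance trend and two-sided tests; the script was first tested on simulated data. Fold changes on this scale understate those of low genes. The members and lists were chosen with earlier results of these data known: 10 members, 5 lists of WNT pathway genes and 6 lists of cell type markers, with named genes being the members, list genes and the 3 genes most like each changed member. NPTX1 and NODAL belong to the latter. Replicate 1 minus replicate 2 differences correlated across genes at 0.0949 to 0.195 among 34, 42 and 50 h and at -0.104 to -0.0445 between those and 72 h. That equal numbers pair libraries is taken from the batch given in the labels. Alternatives were a pseudocount of 0.1, no filter, a mean of at least 5 TPM, TMM and quantile scaling, mitochondrial genes left out, no variance trend, a block for the replicate number, the compared time points alone, Ensembl rows apart and each library left out. Positions are from GENCODE release 29 and promoters from RefSeq (GRCh38.p14).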

Additional observations from a re-analysis of the deposited data

How the results depend on the processing

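Of the member changes recomputed under each alternative, 614 values kept sign and side of the threshold, 76 kept the sign and lost the call, and 5 changed sign, all 5 in changes that were not called. Without 1 library in turn, from 42 h to 50 h WIF1 ran from -0.0672 (without replicate 2 at 50 h) to 0.3826, DKK1 from -0.23 (without replicate 2 at 42 h) to 0.5622 and DKK3 from -0.3719 to 0.0255 (without replicate 2 at 50 h). From 50 h to 72 h DKK1 ran from -0.1162 to 0.023 (without replicate 1 at 72 h; 0.0157 without replicate 1 at 50 h). The count of members called at 50 h against 34 h was 4 under every alternative run. At 42 h against 34 h it went from 5 to 2 without the filter on low values, 3 after quantile normalization, 3 without the variance trend, 1 with the compared time points alone (7 at an unadjusted p under 0.05), 2 with Ensembl rows apart, and between 0 and 2 without 1 library, with 0 without either 42 h library (5 and 6 at an unadjusted p under 0.05). At 72 h against 34 h it was between 3 and 5 without 1 library. From 42 h to 50 h the single limma call went to 0 with a pseudocount of 0.1, the compared time points alone, Ensembl rows apart and the replicate block (3 members each at an unadjusted p under 0.05), with a mean of at least 5 TPM (2 of 5 tested), and to 0 without any 1 library (1 to 3). From 50 h to 72 h it went from 3 to 0 with the compared time points alone (4 at an unadjusted p under 0.05) and to between 0 and 3 without 1 library, with 0 without replicate 1 at 72 h (3 at an unadjusted p under 0.05). The replicate block changed no other call of a member than SFRP2 at 42 h and DKK4 from 42 h to 50 h. The cause of these shifts was not tested, except that fits of fewer libraries have fewer degrees of freedom.

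Counts over all genes moved too: 384 at 42 h (160 to 403), 933 at 50 h (412 to 966) and 3578 at 72 h (1840 to 3661) against 34 h, 14 from 42 h to 50 h (0 to 27; 7 with the replicate block), 1093 from 50 h to 72 h (319 to 1138) and 2587 over the 4 time points (1158 to 2635). Against 34 h the 525 raised and 408 lowered genes at 50 h became 460 and 506 after TMM scaling and 466 and 474 after quantile normalization, and the 1900 and 1678 at 72 h became 1552 and 2003, and 1638 and 1796. Between 42 h and 50 h the 9 raised and 5 lowered genes became 9 and 10 after TMM scaling or without mitochondrial genes and 9 and 11 after quantile normalization. TMM scaling shifted a library by at most 0.06 on the log2 scale. With 2 libraries a time point, unknown depth and members near 1 TPM, differences in DKK1, DKK2, SFRP4 and DKK4 at low levels could not be resolved.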
